A study of Homo sapiens with 16 samples.

Results

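LX-2 cells, an established human line derived from hepatic stellate cells, were studied after CRISPR/Cas9 knockout of the receptor Fn14 in 2 separate lines, which were compared as a pair with wild type. The comparison uses 12 of the 16 libraries of the series: 4 of wild-type cells (WT), 4 of the Fn14alpha KO and 4 of the Fn14 KO, in which total Fn14 was targeted. The remaining 4 libraries are wild-type cells given 100 ng/mL of the ligand TWEAK for 2 h. Their values are given only beside those of the knockouts, but the fit behind the p-values used all 16 libraries. All 3 groups of the comparison had 24 h of culture in a reduced-serum endothelial growth medium and then 2 h with the PBS vehicle, so none of the knockout libraries received TWEAK. The mean of the 2 lines, with equal weight, was set against WT. Genes were then selected that moved the same way in all 8 knockout libraries.

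The labels do not say whether a knockout line is 1 clone or a pool of cells. What the lines share is therefore a change found in 2 lines, and loss of Fn14 cannot be told apart from other differences that both lines have from this WT culture. The design text calls the replicates biological, without saying how they were kept apart, so the p-values cover the spread among these libraries, which may be technical. In bulk RNA, fewer cells that express a gene and less of its RNA per cell cannot be told apart. Total counts ran from 13741703 to 16888606 over the 12 libraries.

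Fn14, the product of TNFRSF12A, is a small member of the TNF receptor superfamily. Its cytoplasmic tail binds TRAF adaptors, which lead to the canonical and the non-canonical arm of NF-kB. Stellate cells store vitamin A in the healthy liver. After injury they become contractile, matrix-depositing myofibroblasts that also secrete chemokines. The title of the series concerns a splice isoform of Fn14 that signals without TWEAK, which is the question that untreated knockout cells address.

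The promoters of 6 genes on which the results turn are shown here as the 250 bases before the RefSeq transcription start (GRCh38.p14), 5′ to 3′ on the gene's own strand. All 6 hold the motif named with them, and they do not stand for every promoter of their gene lists. CXCL5 (chr4:73998678-73998927, minus strand), a chemokine gene, and TNFRSF9 (chr1:7940840-7941089, minus strand), a TNF receptor gene, were lower in both lines. Each holds 1 match to GGNNTTTCC, a motif of the NF-kB type, in capitals, which begins 90 and 73 bases before the start. The RefSeq start of TNFRSF9 lies inside the gene as the deposited table gives it.
CXCL5: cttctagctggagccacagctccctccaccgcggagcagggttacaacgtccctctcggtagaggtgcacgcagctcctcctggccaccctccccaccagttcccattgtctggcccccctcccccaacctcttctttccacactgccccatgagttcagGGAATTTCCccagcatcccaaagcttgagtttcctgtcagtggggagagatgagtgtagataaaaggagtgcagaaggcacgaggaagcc
TNFRSF9: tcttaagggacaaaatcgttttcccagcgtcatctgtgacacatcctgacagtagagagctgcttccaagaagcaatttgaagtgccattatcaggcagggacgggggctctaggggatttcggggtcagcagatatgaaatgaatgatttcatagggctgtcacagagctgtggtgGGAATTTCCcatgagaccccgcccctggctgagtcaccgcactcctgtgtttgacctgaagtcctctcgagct

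ANKRD1 (chr10:90921088-90921337, minus strand), a muscle ankyrin repeat gene, and CCN2 (chr6:131951373-131951622, minus strand), which encodes connective tissue growth factor, were higher in both lines. Capitals mark GGAATG, a motif of the TEAD type, with 2 matches in ANKRD1 and 3 in CCN2.
ANKRD1: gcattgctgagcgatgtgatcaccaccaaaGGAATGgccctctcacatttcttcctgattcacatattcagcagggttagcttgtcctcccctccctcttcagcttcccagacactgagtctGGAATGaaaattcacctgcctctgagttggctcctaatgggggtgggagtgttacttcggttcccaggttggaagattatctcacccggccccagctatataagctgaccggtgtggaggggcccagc
CCN2: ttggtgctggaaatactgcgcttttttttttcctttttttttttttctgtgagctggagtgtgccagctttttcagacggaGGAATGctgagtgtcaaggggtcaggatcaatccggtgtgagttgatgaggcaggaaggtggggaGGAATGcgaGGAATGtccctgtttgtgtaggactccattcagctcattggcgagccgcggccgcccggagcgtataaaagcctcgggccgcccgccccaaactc

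BST2 (chr19:17405631-17405880, minus strand), which encodes the antiviral membrane protein tetherin, and IFI44 (chr1:78649539-78649788, plus strand), an interferon-induced gene, were lower in both lines. Capitals mark a motif of the interferon type, TTTC followed by any 2 bases and TTTC again, on either strand. BST2 holds 2 overlapping matches on the opposite strand and IFI44 holds 1.
BST2: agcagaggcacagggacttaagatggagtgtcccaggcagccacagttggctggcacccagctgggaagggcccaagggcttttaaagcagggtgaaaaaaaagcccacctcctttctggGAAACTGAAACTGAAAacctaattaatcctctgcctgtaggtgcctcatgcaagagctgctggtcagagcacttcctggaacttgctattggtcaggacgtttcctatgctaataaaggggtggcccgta
IFI44: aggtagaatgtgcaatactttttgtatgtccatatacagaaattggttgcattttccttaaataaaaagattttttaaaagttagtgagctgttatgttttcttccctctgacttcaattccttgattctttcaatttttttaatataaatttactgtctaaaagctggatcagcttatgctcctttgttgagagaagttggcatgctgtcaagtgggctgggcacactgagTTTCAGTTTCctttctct

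TNFRSF12A (ENSG00000006327, GRCh38 chromosome 16, 3018445 to 3022383), the targeted gene, was lower in every knockout library. In WT its level was 131, 133, 129 and 119 FPKM (counts scaled to exonic size and to the library total). The Fn14alpha KO had 56.0, 64.7, 64.5 and 51.8 FPKM, and the Fn14 KO had 34.9, 35.6, 34.5 and 29.5 FPKM. The highest knockout library, at 64.7 FPKM, lay well under the lowest WT library. The log2 fold change of the mean of both lines was −1.48 ± 0.06 (SE, edgeR adjusted p = 3.57e-15), and that of the Fn14 KO minus the Fn14alpha KO was −0.67 ± 0.08 (edgeR adjusted p = 9.54e-08). The edgeR fit put 45.2% of the WT level in the Fn14alpha KO and 28.5% in the Fn14 KO. The GENCODE annotation holds 7 transcripts of the gene, over which the counts sum, so these values do not show which isoform remained.

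Of 16029 genes tested, edgeR's quasi-likelihood test called 7178 (44.8%) in the mean of both lines against WT at an adjusted p of 0.05, 3347 (20.9%) higher and 3831 (23.9%) lower. Each line on its own against WT had 6771 (42.2%) in the Fn14alpha KO and 8472 (52.9%) in the Fn14 KO. In 1483 genes called in the mean the lines lay on opposite sides of WT. A gene is called shared below where it passed that test and all 8 knockout libraries lay beyond all 4 WT libraries on the same side. By this rule 2226 genes (13.9% of those tested) were shared, 973 higher (6.07%) and 1253 lower (7.82%). Of these, 865 of the higher and 1151 of the lower genes were also called in each line alone. Beyond all 8 wild-type libraries, those with TWEAK included, lay 651 of the higher and 911 of the lower genes. The shared decreases were larger than the increases: the median log2 fold change was 0.42 in the Fn14alpha KO and 0.60 in the Fn14 KO for the higher genes, and −0.68 and −0.81 for the lower ones, beside medians of 0.01 and −0.01 over all genes tested. A change of at least 1 on the log2 scale in both lines was seen in 83 of the higher and 337 of the lower genes. The surplus of lower genes lay among weakly expressed ones. Once shared genes that stayed under 2 FPKM throughout were left out, 806 higher and 808 lower ones remained. Sizes of change were not compared at that level. The surplus also moved with the scaling, to 881 higher and 1409 lower with total counts in place of TMM. Protein-coding genes made up 93.4% of the higher and 89.4% of the lower genes, against 81.8% of all tested. When the 8 knockout libraries were fitted as 1 group, so that the difference between the lines counted as spread, 1136 genes were called higher and 1284 lower.

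**Figure D1:**
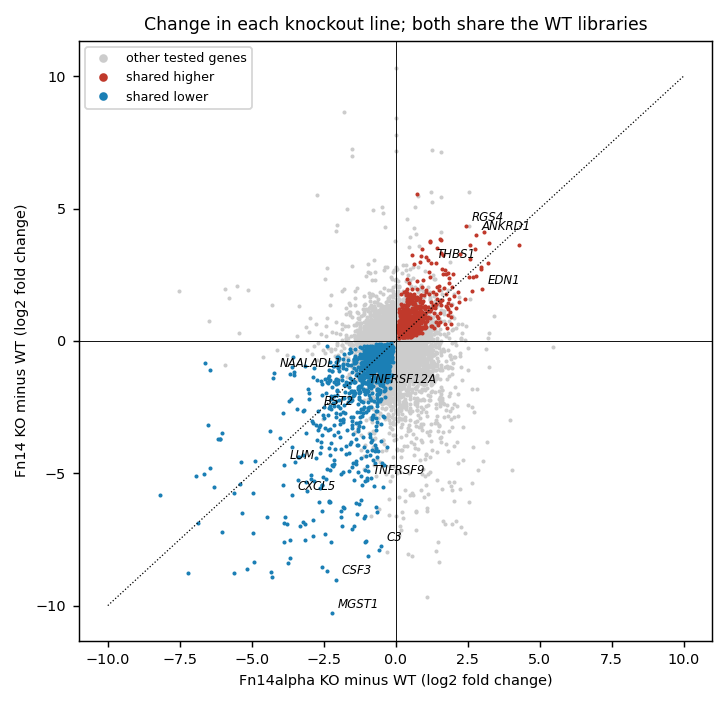
Log2 fold change against WT of each tested gene in the Fn14alpha KO (x axis) and the Fn14 KO (y axis), with the 973 shared higher genes in red, the 1253 shared lower genes in blue and other genes in grey. Both axes use the same 4 WT libraries, and the dotted line marks equal change; more of the large decreases lie under that line, on the side of the Fn14 KO, as for CXCL5, C3 and MGST1.

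The 12 genes with the largest shared increase had diverse roles, from growth factor ligands to regulators of G-protein signalling. ANKRD1 (ENSG00000148677), a nuclear and sarcomeric protein that is a standard readout of YAP, had 8.53, 8.17, 7.88 and 10.4 FPKM in WT. Its level was 58.5, 62.9, 61.6 and 63.4 FPKM in the Fn14alpha KO and 130, 129, 113 and 141 FPKM in the Fn14 KO. The groups do not overlap, and the Fn14 KO is the higher of the 2 lines. The log2 fold change was 2.78 ± 0.19 (SE) and 3.99 ± 0.19, and 3.39 ± 0.18 for the mean of both (edgeR adjusted p = 1.96e-11).

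TGFB2, a TGF-beta ligand, had 1.08, 1.61, 1.39 and 1.54 FPKM in WT, 7.35, 6.10, 6.22 and 7.44 FPKM in the Fn14alpha KO and 9.41, 12.6, 12.3 and 16.3 FPKM in the Fn14 KO. INHBB, the activin beta-B subunit, had 0.87 to 1.29 FPKM in WT, 7.0 to 8.04 FPKM in the Fn14alpha KO and 5.22 to 5.55 FPKM in the Fn14 KO. IGFBP5, a secreted binding protein of insulin-like growth factors, had 2.05 to 3.01, 15.5 to 18.2 and 9.97 to 13.8 FPKM in the same order. All 8 knockout libraries stood above WT in each of these, with TGFB2 farther in the Fn14 KO and the others farther in the Fn14alpha KO. CCN2, a matricellular protein, was already abundant in WT, at 35.4, 38.1, 38.3 and 40.3 FPKM. It reached 139, 138, 138 and 149 FPKM in the Fn14alpha KO and 99.1, 104, 99.2 and 113 FPKM in the Fn14 KO (log2 fold change 1.86 ± 0.11 and 1.57 ± 0.11, edgeR adjusted p of the mean = 2.57e-11).

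The other genes among the 12 largest shared increases were RGS4, a brake on G-protein signalling (log2 fold change 2.45 in the Fn14alpha KO and 4.32 in the Fn14 KO), the vasoconstrictor endothelin EDN1 (2.99 and 1.96), the integrin ligand EDIL3 (1.81 and 2.57) and the phospholipase PLCB4 (1.75 and 2.52). They also held the thrombin receptor thrombomodulin THBD (2.02 and 1.68), PMEPA1, a feedback inhibitor of SMAD signalling (1.63 and 3.23), and TIMP3, an inhibitor of metalloproteinases (1.59 and 2.71). WT levels of EDN1, PLCB4, THBD and PMEPA1 were all under 1 FPKM. Neighbouring genes of PLCB4 and THBD on chromosome 20 had a median log2 fold change of 0.74 and 0.71 in the Fn14 KO, and whether that shift takes part in their change was not tested.

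The 12 genes with the largest shared decrease were likewise mixed, and 4 of them (SSX1, PAGE1, MAGEC2 and SPANXB1) are cancer/testis antigens described further on. CXCL5 (ENSG00000163735), a chemokine that attracts neutrophils, had 299, 292, 286 and 325 FPKM in WT. It fell to 25.7, 23.4, 27.3 and 25.9 FPKM in the Fn14alpha KO and to 5.0, 5.33, 3.90 and 5.23 FPKM in the Fn14 KO. That is 8.32% and 1.76% of the WT level (log2 fold change −3.59 ± 0.08 and −5.83 ± 0.09, edgeR adjusted p of the mean = 7.42e-25). With TWEAK the level was 634.71, 610, 592 and 565 FPKM, above every WT library.

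LUM, which encodes the collagen-binding proteoglycan lumican, had 4.28, 4.32, 4.69 and 5.36 FPKM in WT, 0.51, 0.41, 0.16 and 0.20 FPKM in the Fn14alpha KO and 0.13, 0.16, 0.19 and 0.19 FPKM in the Fn14 KO. IL13RA2, a decoy receptor for interleukin 13, fell from 2.41 to 4.82 FPKM in WT to at most 0.13 FPKM in each line (log2 fold change −5.60 ± 0.36 and −5.74 ± 0.38). SERPINB2, an inhibitor of plasminogen activators, had 7.23 to 8.63 FPKM in WT, 0.58 to 1.07 in the Fn14alpha KO and 0.00 to 0.11 in the Fn14 KO. In all 3 the highest knockout library was far under the lowest of WT. CD163L1, a scavenger receptor, fell by a similar amount in each line (−2.88 ± 0.12 and −3.12 ± 0.12). Its neighbours on chromosome 12 had medians of −0.42 and −0.55, and their part in its decrease was not tested.

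TNFAIP6, a hyaluronan-binding protein induced by TNF, had 4.18 to 4.54 FPKM in WT and 0.28 to 0.57 FPKM in the Fn14alpha KO. In the Fn14 KO it had 3 counts in all against 441 in WT, a ratio of 0.00757 after scaling (95% counting interval 0.00156 to 0.0223, which covers counting error only). JCHAIN, the joining chain of polymeric immunoglobulins, had 1 count in the Fn14 KO against 303 in WT, and its 4 libraries of the Fn14alpha KO were at 0.00, 0.00, 0.50 and 0.48 FPKM. MT1L, typed as a transcribed pseudogene of the metallothionein family, has close copies on chromosome 16 that may share its reads. Of 7 metallothioneins tested it alone was shared, and 6 were not. MT1L had 2 counts in the Fn14alpha KO and 0 in the Fn14 KO against 81 in WT. The latter makes it at least 24.2-fold lower, at a floor of 3 counts over the group.

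**Figure D2:**
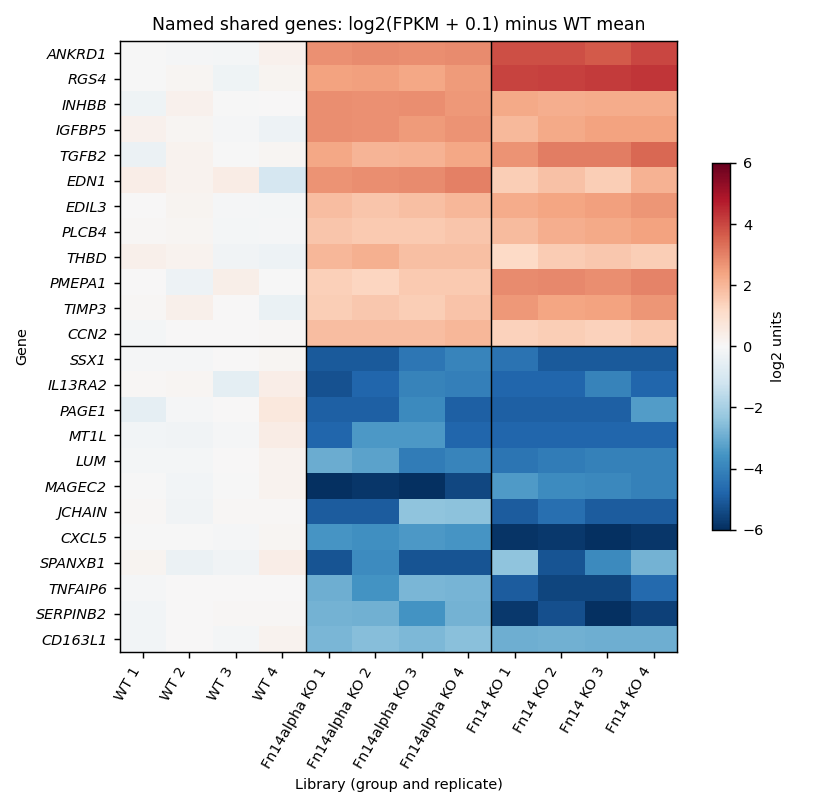
Level of the 12 genes with the largest shared increase (upper block) and the 12 with the largest shared decrease (lower block) in each of the 12 libraries, as log2(FPKM + 0.1) minus the mean of the 4 WT libraries, from blue (lower) to red (higher). Every knockout column has the same sign in each row, while the size differs between the lines, as in RGS4 and MAGEC2.

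The lines agreed in direction by construction, but often not in size. Between the lines edgeR called 9489 genes (59.2% of those tested) at an adjusted p of 0.05. Among the shared higher genes 549 of 973 differed between the lines, 444 of them with the larger change in the Fn14 KO. Among the shared lower genes 670 of 1253 differed, 460 with the larger change in the Fn14 KO. Of the genes not called different, ATP8B1, a phospholipid flippase, rose by 1.39 and 1.38 (95% interval of the difference −0.21 to 0.20). SLFN5, an interferon-induced Schlafen family gene, fell by 1.04 and 1.05 (interval −0.20 to 0.19) and UBA7, the activating enzyme of the ubiquitin-like protein ISG15, by 1.03 and 1.01 (interval −0.18 to 0.21). RASD2, ST6GALNAC5 and TMEM154 were the other genes named for like size, at 1.41 and 1.38, 1.28 and 1.36, and −1.15 and −1.14.

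Receptors, adaptors and inhibitors of the pathway were shared lower more often than shared higher. Of 41 tested members of a list of Fn14 and NF-kB signalling parts, 11 were shared lower and 3 shared higher, beside 7.82% and 6.07% of all genes. Those shares of all genes apply to every list below. The 11 include TNFRSF12A itself, the gene that was targeted. The others were the receptors TNFRSF9, TNFRSF1A and LTBR, the adaptor TRAF1, the NF-kB precursors NFKB1 and NFKB2, and the inhibitors NFKBIA, NFKBIZ, TNIP1 and CYLD. In all 11 the decrease was larger in the Fn14 KO by the edgeR test between the lines, with medians of −0.44 and −1.41. Thus NFKB2, the p100 precursor of the non-canonical arm, went from 14.8 ± 0.791 FPKM (SD, n = 4) in WT to 13.2 ± 0.243 and 4.73 ± 0.279, and NFKBIA, the inhibitor IkB alpha, from 39.5 ± 2.88 to 34.3 ± 1.73 and 14.7 ± 1.04. With the 8 knockout libraries as 1 group 7 of the 41 were shared lower. The 3 higher members were the adaptor TRAF5 and the receptors TNFRSF1B and TNFRSF21.

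Most listed targets of NF-kB were on the lower side. This list overlaps that of the signalling parts: TNFRSF9, TRAF1, NFKB1, NFKB2, NFKBIA and TNIP1 are on both. Of 40 tested, 26 (65.0%) were shared lower, 0 shared higher and 14 neither, beside 7.82% lower and 6.07% higher of all genes. In the mean of both lines edgeR called 37 lower and 1 higher, beside 23.9% and 20.9% of all genes. The median log2 fold change of the list was −0.50 in the Fn14alpha KO and −3.07 in the Fn14 KO. In 24 of the 26 genes the decrease was larger in the Fn14 KO at an adjusted p of 0.05. With the 8 knockout libraries as 1 group, 13 of the 40 were shared lower in place of 26.

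TNFRSF9 (4-1BB), a costimulatory receptor, had 2.29, 2.34, 1.86 and 2.15 FPKM in WT, 1.07, 1.17, 1.16 and 1.00 FPKM in the Fn14alpha KO and 0.05, 0.05, 0.04 and 0.06 FPKM in the Fn14 KO. With TWEAK it had 7.52 to 9.24 FPKM. The 4 groups thus stood in separate ranges. TRAF1 had 1.34 to 1.87 FPKM in WT, 0.85 to 1.12 in the Fn14alpha KO, 0.30 to 0.68 in the Fn14 KO and 38.1 to 42.9 with TWEAK. BCL2A1, a survival protein of the BCL2 family, had 4.40 to 7.51, 1.24 to 1.82, 0.06 to 0.38 and 12.9 to 19.1 FPKM in the same order. These genes lay below WT without ligand in the knockouts and above WT with ligand in wild-type cells. Neighbours of TRAF1 on chromosome 9 had medians of −0.42 in the Fn14alpha KO and −0.03 in the Fn14 KO. Their part in its decrease was not tested. TWEAK and knockout comparisons use the same WT libraries, and TWEAK called 1101 genes (6.87%).

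Among chemokines and cytokines 17 of 27 were shared lower and 1 higher, beside 7.82% and 6.07% of all genes. Many of them, such as CXCL5, CXCL8, IL1B and CSF3, are also listed NF-kB targets, so the lists count some of the same decreases. CSF3, the granulocyte growth factor, had 5.44 to 6.76 FPKM in WT and 0.95 to 1.91 FPKM in the Fn14alpha KO. In the Fn14 KO its count was 1 against 857 in WT, a ratio of 0.00130 (95% counting interval 3.29e-05 to 0.00726). The neutrophil chemokine CXCL8 went from 107 ± 14.5 to 73.7 ± 9.04 and 0.40 ± 0.177 FPKM, and the inflammatory cytokine IL1B from 104 ± 3.73 to 50.2 ± 1.19 and 0.985 ± 0.323 FPKM. On the log2 scale each of these fell farther between the Fn14alpha KO and the Fn14 KO than between WT and the Fn14alpha KO. IL33, an alarmin, was low in both lines, at 0.00 to 0.06 FPKM in the Fn14alpha KO and 0.00 to 0.07 in the Fn14 KO beside 0.33 to 0.41 in WT. The 1 higher member, CXCL12, a chemokine that retains leukocytes and progenitors in tissue, went from 0.20 ± 0.0183 to 0.558 ± 0.144 and 2.15 ± 0.119 FPKM. Fitted as 1 group, 9 of the 27 were shared lower.

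Of 26 shared lower NF-kB targets, 21 had a promoter in the RefSeq table, and 12 of these (57.1%) held GGNNTTTCC on either strand, as in CXCL5 and TNFRSF9. The share over the promoters of 11351 tested genes was 5.87%. The list is of known targets, so its share describes the list. Among all shared genes the shares were 7.60% of the lower and 6.27% of the higher promoters. A motif of the AP-1 type, TGANTCA, was held by 7.60% of the shared lower, 3.39% of the shared higher and 4.09% of all promoters.

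Interferon-response genes formed the next group of decreases. Of 42 tested, 19 were shared lower and 0 higher, beside 7.82% and 6.07% of all genes. In the mean edgeR called 33 lower and 1 higher, beside 23.9% and 20.9% of all genes. Medians were −0.61 in the Fn14alpha KO and −0.99 in the Fn14 KO. BST2 had 12.7, 10.4, 10.9 and 11.99 FPKM in WT, 1.42, 1.65, 1.9 and 2.25 in the Fn14alpha KO and 3.10, 1.66, 1.03 and 0.97 in the Fn14 KO. The lines overlap each other here and not WT, with decreases of 2.69 and 2.64 on the log2 scale (95% interval of the difference −0.53 to 0.64). IFI44 had 4.13 to 5.13 FPKM in WT, 1.39 to 2.08 in the Fn14alpha KO and 0.00 to 0.33 in the Fn14 KO. SAMD9L, an antiviral restriction factor, fell to 36.6% and 26.9% of WT. In contrast to CXCL5, the TWEAK values of BST2 (7.51 to 12.2 FPKM), IFI44 (2.92 to 4.56) and SAMD9L (1.15 to 1.66) overlapped those of WT. The interferon type motif was in 10 of 15 promoters of the shared lower genes of this list and in 2.35% of all promoters. This list too is of known responders, so its share describes the list.

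Of 22 antigen presentation genes 8 were shared lower and 0 higher, beside 7.82% and 6.07% of all genes. The class I gene HLA-B went from 42.8 to 52.6 FPKM in WT to 28.7 to 35.8 and 21.6 to 33.0 FPKM, and ERAP2, a peptidase that trims class I peptides, from 6.47 to 7.77 to 2.62 to 3.21 and 2.79 to 3.33 FPKM. The immunoproteasome subunits PSMB8 and PSMB9 were among the 8. CD74, the invariant chain of class II, was at 0.26 to 0.56 FPKM in WT and 0.00 to 0.02 FPKM in the Fn14 KO. Reads of HLA genes can be split between close copies, so the HLA-B value is uncertain.

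Targets of YAP and TEAD, the transcriptional pair that responds to stretch and cell shape, were mostly on the higher side. Of 24 tested, 10 were shared higher and 1 lower, beside 6.07% and 7.82% of all genes. The list had medians of 0.45 and 0.53 in the 2 lines. Beside ANKRD1, TGFB2 and CCN2 the 10 comprised the matricellular gene CCN1, the factor TEAD1, the kinase LATS2 and the scaffold AJUBA, both of the Hippo pathway, the receptor AXL, and ASAP1 and DLC1, which act on small GTPases. CCN1 went from 155 ± 8.77 FPKM in WT to 321 ± 3.14 in the Fn14alpha KO and 228 ± 13.4 in the Fn14 KO, and TEAD1 from 10.7 ± 1.42 to 18.8 ± 1.83 and 18.3 ± 3.44. The 1 lower member was NT5E, an ecto-nucleotidase. GGAATG was in 3 of 6 promoters of the 10 genes and in 9.52% of all promoters. As a list of known targets, its share describes the list.

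TGF-beta and SMAD targets shared members with that list, TGFB2 and CCN2. Of 23 tested, 7 were shared higher and 1, the activin subunit INHBA, lower. Further higher members were PMEPA1, TAGLN, the inhibitory SMAD7 and ID1. The list's medians were 0.11 and 0.14.

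The contractile genes of myofibroblasts split. Of 21, 6 were shared higher and 2 lower. TAGLN, the actin-binding protein transgelin, had 25.4, 25.04, 24.9 and 26.2 FPKM in WT, 40.2, 47.4, 45.9 and 39.2 in the Fn14alpha KO and 104, 86.6, 90.1 and 78.7 in the Fn14 KO. All 8 libraries were above WT, by 1.66- and 3.84-fold in the fit. The non-muscle myosin MYH9, tropomyosin TPM1, caldesmon CALD1 and actinin ACTN1 each rose less in the Fn14alpha KO (0.28 to 0.44) than in the Fn14 KO (0.59 to 1.86). ACTA2, the smooth muscle actin used as a mark of activated stellate cells, was not shared, at 2.83 ± 0.252 FPKM in WT, 1.21 ± 0.158 in the Fn14alpha KO and 2.79 ± 0.389 in the Fn14 KO. SYNPO2 and PALLD, which crosslink actin, were the 2 lower members.

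**Figure D3:**
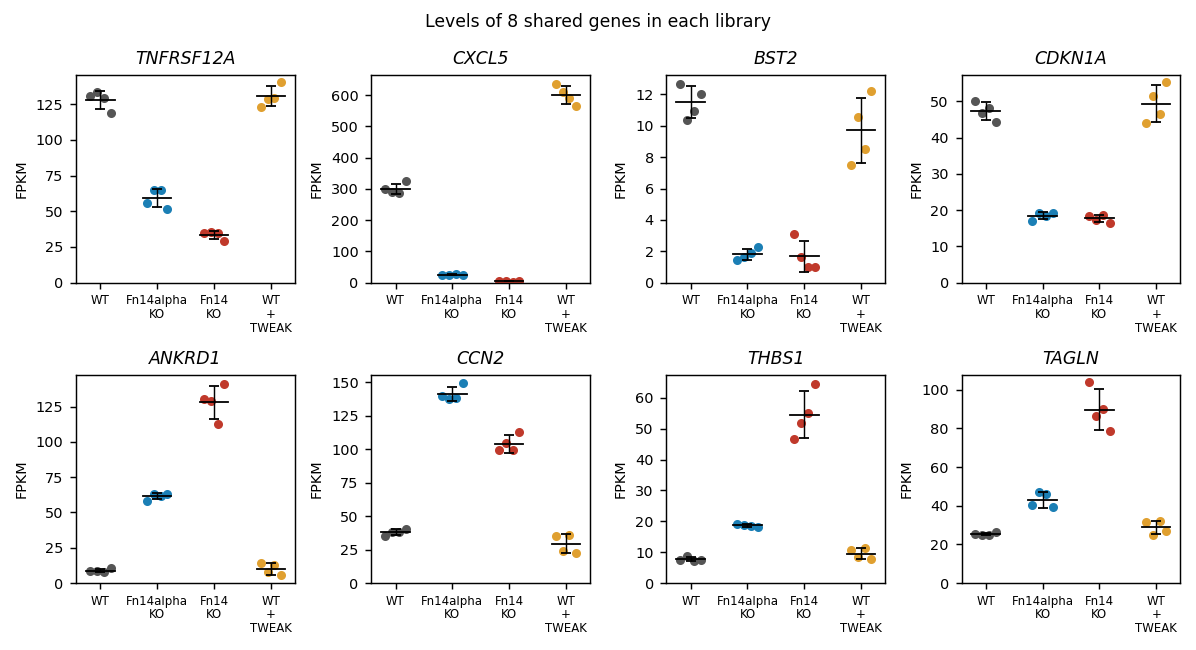
FPKM of 8 shared genes in each library (points) with the mean and SD of 4 libraries (bars), for WT, both knockouts and, beside them, wild-type cells with TWEAK. TNFRSF12A, CXCL5, BST2 and CDKN1A are under every WT library in all 8 knockout libraries, and ANKRD1, CCN2, THBS1 and TAGLN are above.

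Matrix genes changed in both directions. Of 23 collagen genes 5 were shared higher and 8 lower, beside 6.07% and 7.82% of all genes. The basement membrane chains COL4A1 and COL4A2 were higher, COL4A1 from 17.4 ± 1.36 to 46.5 ± 4.04 and 54.9 ± 6.15 FPKM, together with COL5A2, COL7A1 and COL13A1. COL4A1 and COL4A2 lie in a stretch of chromosome 13 whose genes had medians of 0.29 and 1.04 in the 2 lines, and the part of that shift in their change was not tested. The fibrillar chain gene COL1A2 had 1.42, 1.43, 1.62 and 1.46 FPKM in WT, 0.38, 0.37, 0.55 and 0.40 in the Fn14alpha KO and 0.17, 0.12, 0.16 and 0.19 in the Fn14 KO. COL3A1 fell from 23.7 ± 1.27 to 17.9 ± 1.20 and 8.33 ± 0.660 FPKM, while the partner of COL1A2, COL1A1, at 133 ± 7.96, 120 ± 4.995 and 196 ± 5.96 FPKM, was not shared. COL11A1, of minor fibrils, and COL4A6, of smooth muscle basement membranes, fell to 8.05% and 22.1% and to 31.1% and 9.81% of WT. Neighbours of COL4A6 on the X chromosome had medians of −0.91 in the Fn14alpha KO and 0.14 in the Fn14 KO. Their part in its decrease was not tested.

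Of 32 other matrix genes 3 were shared higher and 6 lower. THBS1, thrombospondin 1, which can activate latent TGF-beta, had 7.53, 8.83, 7.14 and 7.47 FPKM in WT, 19.2, 18.7, 18.5 and 18.3 in the Fn14alpha KO and 46.6, 51.8, 55.0 and 64.6 in the Fn14 KO. Fibronectin FN1 went from 120 ± 19.3 to 179 ± 18.3 and 434 ± 75.3 FPKM. Both increases were larger in the Fn14 KO. DCN, the proteoglycan decorin, went the other way, from 3.64 to 4.07 FPKM to 0.33 to 0.57 in the Fn14alpha KO and 0.93 to 1.07 in the Fn14 KO. DCN and LUM lie side by side on chromosome 12, where the median of neighbouring genes was −0.62 in the Fn14alpha KO and near 0 in the Fn14 KO. Fitted as 1 group, 3 of the 32 were shared lower.

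Among matrix-degrading enzymes and their inhibitors 5 of 30 were shared higher and 6 lower. MMP1, interstitial collagenase, had 55.0, 54.3, 53.4 and 67.2 FPKM in WT, 12.01, 11.1, 12.1 and 12.1 in the Fn14alpha KO and 0.78, 0.82, 1.04 and 0.57 in the Fn14 KO. That left 20.1% and 1.51% of the WT level. The stromelysin MMP3 fell by 2.52 ± 0.43 and 2.79 ± 0.46, and MMP9, MMP14, MMP25 and SERPINB2 completed the 6. Among the higher genes were TIMP3, the plasminogen activator PLAT, the protease inhibitor SERPINE2 and the metalloproteinase ADAM19. TIMP3 was also higher with TWEAK (log2 fold change 1.66, edgeR adjusted p = 5.32e-10), and its 3 groups of raised libraries all lay above WT.

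Targets of p53, the stress-activated tumour suppressor, leaned to the lower side in both lines. Of 28 tested, 13 were shared lower and 1, the kinase PLK2, higher, beside 7.82% and 6.07% of all genes. CDKN1A, the cell cycle inhibitor p21, had 50.1, 46.8, 48.3 and 44.3 FPKM in WT, 17.1, 19.3, 18.4 and 19.2 in the Fn14alpha KO and 18.4, 17.4, 18.8 and 16.4 in the Fn14 KO. The 8 knockout libraries lie together under WT (log2 fold change −1.39 ± 0.07 and −1.30 ± 0.07, edgeR adjusted p of the mean = 1.03e-14), although the median of its neighbouring genes on chromosome 6 was 0.39 and 0.24. MDM2, the ligase that limits p53, went from 11.5 ± 0.365 to 6.97 ± 0.235 and 8.66 ± 0.422 FPKM. FAS, a death receptor, fell to 44.2% and 34.2% of WT, and GDF15, a stress cytokine, to 35.3% and 10.3%. Of the 13, edgeR called 7 different between the lines, 2 of them with the larger decrease in the Fn14 KO.

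Cell cycle genes showed no such lean. Of 42, 3 were shared higher and 3 lower, and the medians were 0.00 and −0.08. CCND2, a G1 cyclin, fell from 0.30 to 0.49 FPKM to 0.00 to 0.03 FPKM in each line. Neighbours of CCND2 on chromosome 12 had medians of −0.39 and −0.60 in the 2 lines. CDKN1B, the inhibitor p27, was lower (−0.41 ± 0.07 for the mean of both lines) and TOP2A, the topoisomerase of dividing cells, higher (0.37 ± 0.06). Their neighbours had medians of −0.60 and −0.61 for CDKN1B and of 0.34 and 0.44 for TOP2A in the 2 lines. After those were removed the changes stood at 0.19 and −0.021, and 0 of the 42 genes were shared higher and 2 lower.

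Genes that handle oxidants and xenobiotics were shared lower more often than higher. Of 31 NRF2 targets and AKR1 reductases, 9 were shared lower and 2 higher. AKR1C1 and AKR1C3, aldo-keto reductases that act on steroids, fell to 0.06 to 0.11 and 0.12 to 0.19 FPKM in the Fn14alpha KO and 0.17 to 0.27 and 0.09 to 0.34 FPKM in the Fn14 KO, from 0.47 to 0.75 and 0.55 to 0.78 in WT. These are near-identical copies, so the split of reads between them is uncertain. MGST1, a membrane glutathione transferase, had 0.86 to 1.06 FPKM in the Fn14alpha KO and a single count in the Fn14 KO against 2063 in WT, a ratio of 0.000540 (95% counting interval 1.37e-05 to 0.00301). Neighbours of MGST1 on chromosome 12 had medians of −0.65 and −0.61 in the 2 lines, and their part in its decrease was not tested. The ferritin chains FTH1 and FTL were among the 9.

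Growth factor genes moved in both directions, 8 of 49 higher and 11 lower. Beside INHBB, IGFBP5 and EDN1, the higher genes comprised the PDGF ligands PDGFA and PDGFB, NRG1, IGF2 and IGFBP4. Lower were the hepatocyte growth factor HGF, at 0.39 to 0.42 FPKM in WT, 0.08 to 0.11 in the Fn14alpha KO and 0.00 to 0.03 in the Fn14 KO, and the PDGF receptor PDGFRA, at 0.325 ± 0.0351, 0.133 ± 0.0222 and 0.0275 ± 0.0171. FGF7, a growth factor of epithelia, had 0.15 to 0.25 FPKM in WT and at most 0.06 in any knockout library. Of 22 retinoid and quiescence genes, 3 were shared higher and 4 lower. PPARG, a nuclear receptor of quiescent stellate cells, had 0.36 to 0.55 FPKM in WT, 1.58 to 1.78 in the Fn14alpha KO and 1.05 to 1.20 in the Fn14 KO. DHRS3, a retinal reductase, had 1.48 to 1.69, 0.71 to 1.08 and 0.00 to 0.06 FPKM. Fitted as 1 group, 1 of the 22 was shared lower.

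Adhesion genes had 4 of 30 shared in each direction, beside 6.07% higher and 7.82% lower of all genes. The collagen receptor chain ITGA2 fell to 27.8% and 36.2% of WT and the cadherin CDH11, a mark of activated fibroblasts, to 9.22% and 16.9%, while the cell adhesion molecule ALCAM rose by 0.91 ± 0.09 and 1.07 ± 0.09. Fitted as 1 group, 2 of the 30 were shared lower, as they were once the shift of neighbouring genes was taken out. Of 10 surface peptidases 4 were shared lower and 0 higher. FAP, the fibroblast activation protein, had 0.77 to 0.95 FPKM in WT, 0.13 to 0.27 in the Fn14alpha KO and 0.23 to 0.43 in the Fn14 KO, and NAALADL1 fell farther in the Fn14alpha KO (−4.23 ± 0.19) than in the Fn14 KO (−1.21 ± 0.13). DPP4 was already low in WT, at 105 counts over the 4 libraries, and was near 0 in both lines, with 2 counts in the Fn14 KO.

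Among 15 complement genes 3 were shared lower, beside 7.82% of all genes. C1S and C1R, the proteases of the first complement component, fell to 29.6% and 15.04% and to 41.0% and 30.8% of WT. C3, the central component, had 3.48 to 4.67 FPKM in WT, 2.77 to 3.10 in the Fn14alpha KO and 0.01 to 0.03 in the Fn14 KO. The Fn14alpha KO holds most of the WT level of C3, and the Fn14 KO almost none. C1S and C1R lie in a stretch of chromosome 12 whose genes had a median near −0.4 and −0.5 in the lines, as given below.

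Early response genes were shared higher in 5 of 31 cases and lower in 3, beside 6.07% and 7.82% of all genes. The lower count is near that share. The phosphatases DUSP1 and DUSP4, which switch off MAP kinases, rose by 0.56 and 0.67 and by 0.69 and 1.30, and DUSP6, which acts on ERK, fell by 0.64 and 0.56. Neighbouring genes had medians of 0.03 and 0.39 for DUSP1 and of −0.60 and −0.02 for DUSP6 in the 2 lines. The part of those shifts in their changes was not tested. Of 29 glycolysis and hypoxia genes 2 were shared higher and 6 lower. The glucose transporters went opposite ways, SLC2A1 up by 0.68 ± 0.08 and 0.80 ± 0.08 and SLC2A3 down, with log2 fold changes of −1.12 ± 0.09 and −0.83 ± 0.08. SLC2A3, with TPI1 and GAPDH of this list, lies in the lower stretch of chromosome 12. Cholesterol synthesis genes (34 tested, 1 higher and 1 lower), ATF4 targets (30 tested, 3 higher and 2 lower) and ribosomal protein genes (75 tested, 0 higher and 1 lower) had shared members near or under the share of all genes.

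**Figure D4:**
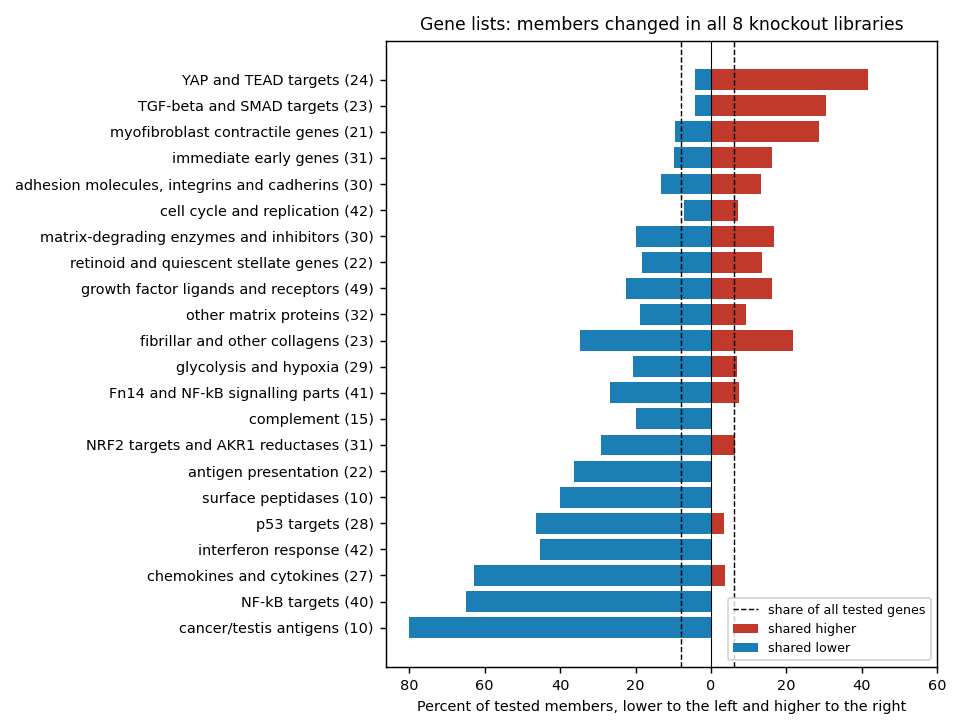
Percent of the tested members of each gene list (number tested in brackets) that were shared higher (red, to the right) or shared lower (blue, to the left), with dashed lines at the share of all tested genes, 6.07% and 7.82%. The lists of cancer/testis antigens, NF-kB targets, chemokines, p53 targets and interferon genes reach farthest to the left, and YAP and TEAD targets farthest to the right. Some lists share genes, among them those of NF-kB targets and of chemokines.

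The list with the highest share of shared genes was that of cancer/testis antigens, germline proteins that tumours and transformed lines can express. Of 10 tested, 8 were shared lower and 0 higher, all on the X chromosome. MAGEC2 had 29.9, 27.7, 30.7 and 35.1 FPKM in WT, 0.30, 0.44, 0.38 and 0.60 in the Fn14alpha KO and 2.82, 2.17, 1.99 and 1.73 in the Fn14 KO. SSX1 had 3 counts in the Fn14alpha KO and 1 in the Fn14 KO against 243 in WT, and PAGE1 had 1 and 2 counts against 125. SPANXB1 had 1 count in the Fn14alpha KO against 104 in WT and 0.00 to 0.57 FPKM in the Fn14 KO. MAGEA1 was at least 48.9-fold lower in the Fn14alpha KO, where it had 0 counts against 155 (floor of 3 counts over the group), and had 2 counts in the Fn14 KO. These families hold near-identical copies, so reads may be split between members. Over the X chromosome as a whole the median log2 fold change was −0.69 in the Fn14alpha KO and 0.08 in the Fn14 KO.

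Shared genes were not spread evenly over the genome. Per chromosome, over genes with a mean log2 CPM of at least 2, the percent shared lower was highest on chromosome 12 (26.9%) and the percent shared higher on chromosomes 13 (26.3%) and 17 (21.6%), beside 7.55% and 7.60% over all. In the first 45 Mb of chromosome 12, 157 genes had medians of −0.51 in the Fn14alpha KO and −0.55 in the Fn14 KO, and 99 of them (63.1%) were shared lower. Between 30 and 45 Mb of chromosome 17, 165 genes had medians of 0.33 and 0.44, and 76 were shared higher. The first 45 Mb of chromosome 6 held 294 genes with medians of 0.36 and 0.26, of which 90 were shared higher. Between 105 and 120 Mb of chromosome 13, 34 genes had medians of 0.29 and 1.04, and 20 of them (58.8%) were shared higher. What lies behind these shifts was not tested. After the median of the 25 genes on each side was removed, 591 genes were shared higher, 397 of them among the 973, and 1057 shared lower, 826 of them among the 1253.

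Several lists were counted again in this way. With the neighbours' median removed, 23 of 40 NF-kB targets, 16 of 27 chemokines and cytokines, 18 of 42 interferon genes, 13 of 28 p53 targets and 8 of 10 cancer/testis genes were shared lower, and 9 of 24 YAP and TEAD targets shared higher. Of 23 collagen genes 4 were then shared higher and 7 lower. Of 15 genes beside TNFRSF12A on chromosome 16, the target itself, the metalloproteinase MMP25 and the cytokine IL32 were shared lower. MMP25 had 2.03 to 2.47 FPKM in WT, 0.79 to 1.07 in the Fn14alpha KO and 0.07 to 0.13 in the Fn14 KO.

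**Figure D5:**
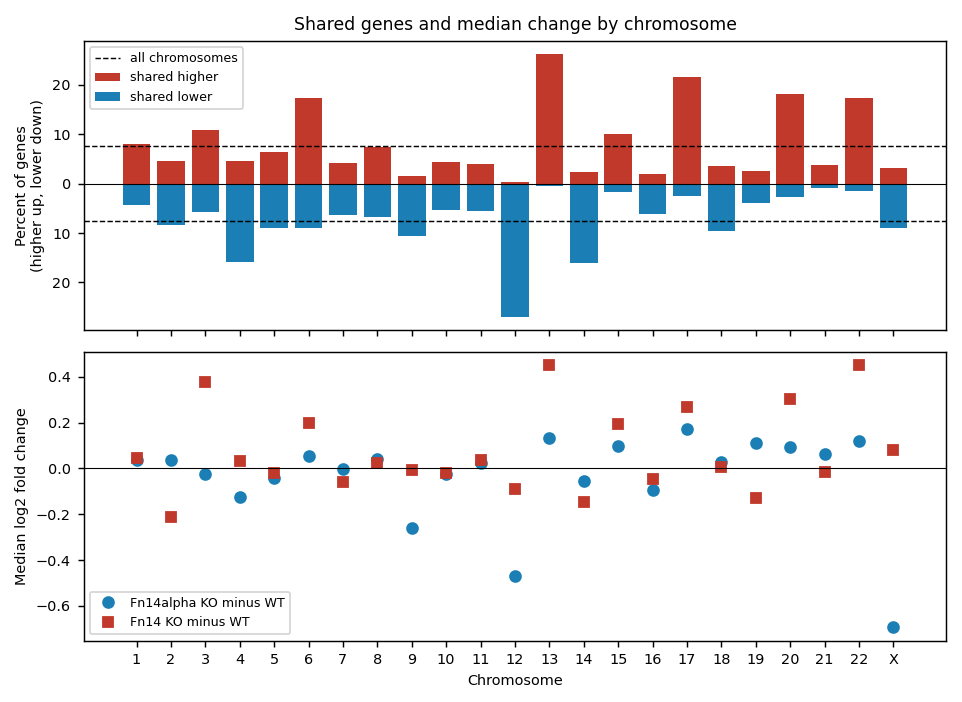
Upper panel, percent of genes on each chromosome that were shared higher (red, up) or shared lower (blue, down), with dashed lines at the share over all chromosomes; lower panel, median log2 fold change against WT in each line. Chromosome 12 stands out with 26.9% shared lower, and chromosomes 13 and 17 with 26.3% and 21.6% shared higher, while the X chromosome is lower only in the Fn14alpha KO.

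Stellate markers were detected in each group. Of 12 tested, 1 was shared higher and 4 lower, beside 6.07% and 7.82% of all genes. The summed level of 14 listed stellate markers was 768 to 811 FPKM in WT, 615 to 631 in the Fn14alpha KO and 1143 to 1225 in the Fn14 KO, with TAGLN shared higher, COL1A2, COL3A1, DCN and LUM shared lower, and LRAT, which makes retinyl esters, at 0.00 to 0.01 FPKM in all 12 libraries. Most of the stellate sum is VIM, COL1A1, SPARC and TIMP1. Hepatocyte markers summed to at most 3.63 FPKM, with APOB, TTR and APOA2 at 0 throughout. Leukocyte markers summed to at most 2.96 FPKM. Endothelial markers summed to 17.8 to 20.3 FPKM in WT, 21.5 to 23.4 in the Fn14alpha KO and 8.49 to 9.45 in the Fn14 KO, nearly all of it TIE1. Cholangiocyte markers summed to 5.43 to 6.49, 5.64 to 7.27 and 11.4 to 12.9 FPKM. Most of that sum is SOX9, with a mean of 4.2 FPKM in WT and 11.02 FPKM in the Fn14 KO. Of 3 cholangiocyte markers tested, 2 (SPP1 and KRT7) were shared lower and 0 shared higher. The part of these marker groups in the results was not tested. On the third principal component of the 12 libraries (6.53% of the variance), WT replicate 4 and Fn14 KO replicate 1 lay apart from the others of their groups. Without both, 1398 genes were shared higher and 1751 lower, among them 969 of the 973 and 1241 of the 1253. With fewer libraries the shared rule is easier to pass.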

How the data were processed

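Poly(A) RNA of 16 LX-2 libraries was sequenced by the authors. They deposited 1 table of 61806 genes with raw read counts, FPKM values that equal count over exonic size and library total (within 0.006 for 100% of values), and exonic size. HISAT2 2.0.1, HTSeq 0.6.1, cutadapt 1.9.1, FastQC 0.10.1 and DESeq2 are named, with GRCh38.p13 and hg38, per the submitters' processing notes. No source used here names the annotation or strand setting, so overlapping and antisense genes cannot be told apart.

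Counts were tested with edgeR 4.0.16 (R 4.3.3): TMM, filterByExpr by group, robust quasi-likelihood F-test (two-sided), 16 libraries, 1 mean per group, 12 residual degrees of freedom, Benjamini-Hochberg over 16029 genes. The standard error is the log2 fold change over the square root of F. Shared genes were judged on TMM log2 CPM with a prior count of 2. limma 3.58.1 and DESeq2 1.42.0 gave alternatives. The fit was tested on simulated data. Replicate pairs differed by more than sampling noise (chi-square per degree of freedom 2.30 to 39.0 over 18 pairs).

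Members, lists and the rule for named genes were chosen with earlier results of these data known. The rule took TNFRSF12A, the 12 shared genes with the largest smaller change of the 2 lines in each direction (at least 2 FPKM in 1 group), 3 of like size in each direction and up to 3 shared members a list. Other members are named to show what a list holds and were chosen after their values were seen. Some members are not reported here. Motifs were searched on both strands of RefSeq promoters. Plots were drawn with matplotlib 3.10.9 (Python 3.11.15, numpy 2.4.6, pandas 2.3.3, scipy 1.17.1).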

Additional observations from a re-analysis of the deposited data

Results flagged for a closer look

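Of 81 genes examined, 48 changed from WT by a different size in the 2 knockout lines, beside 59.2% of all genes tested. The test was edgeR's of Fn14 KO minus Fn14alpha KO (adjusted p of at most 0.05). Other genes of the text, such as MMP25 and IL32, were not examined here. In 33 of the 48 the Fn14 KO lay farther from WT. Values are the difference, Fn14 KO minus Fn14alpha KO, on the log2 scale. Among lower genes that lay farther in the Fn14 KO it was −0.67 for TNFRSF12A, −0.80 for LUM, −3.85 for JCHAIN, −2.24 for CXCL5, −3.60 for TNFAIP6, −3.76 for SERPINB2, −4.24 for TNFRSF9, −1.19 for TRAF1, −6.95 for CSF3, −3.11 for BCL2A1, −3.28 for IFI44, −3.80 for CD74, −1.25 for COL1A2, −1.66 for COL4A6, −3.74 for MMP1, −8.08 for MGST1, −1.77 for GDF15, −0.37 for FAS, −2.53 for HGF, −4.34 for DHRS3, −0.98 for C1S, −0.41 for C1R and −7.24 for C3. The fitted values of genes with 1 to 3 counts in a line depend on the prior count. Among higher genes that lay farther in the Fn14 KO it was 1.21 for ANKRD1, 1.87 for RGS4, 1.05 for TGFB2, 0.76 for EDIL3, 0.76 for PLCB4, 1.60 for PMEPA1, 1.11 for TIMP3, 1.69 for THBS1, 1.21 for TAGLN and 0.61 for DUSP4.

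The Fn14alpha KO lay farther from WT in the other 15. These were INHBB (−0.37), IGFBP5 (−0.29), EDN1 (−1.04), THBD (−0.34), CCN2 (−0.29) and PPARG (−0.39), which were higher than WT, and MAGEC2 (2.48), COL11A1 (1.46), DCN (1.22), AKR1C1 (1.49), SLC2A3 (0.29), CDH11 (0.87), ITGA2 (0.38), FAP (0.98) and NAALADL1 (3.02), which were lower.

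In 24 of 240 groups of 4 libraries, 1 library stood far from the other 3 by Dixon's criterion, which chance meets in about 1 group of 20. Many of these groups were at or near 0 in a knockout. In WT these were JCHAIN in replicate 2 (2.68 FPKM), TNFAIP6 in replicate 1 (4.18), FAP in replicate 3 (0.77), and HLA-B (52.6) and MMP1 (67.2) in replicate 4. In the Fn14alpha KO they were CCN2 (149) and IL33 (0.06) in replicate 4, PAGE1 (0.11), SERPINB2 (0.58), COL1A2 (0.55) and CCND2 (0.03) in replicate 3, SPANXB1 (0.16) and MMP1 (11.1) in replicate 2, and FGF7 (0.06) in replicate 1. In the Fn14 KO they were SSX1 (0.05), CSF3 (0.03) and HLA-B (33.0) in replicate 1, JCHAIN (0.04) and FGF7 (0) in replicate 2, IL13RA2 (0.13), TRAF1 (0.68) and MGST1 (0.01) in replicate 3, and PAGE1 (0.19) and BCL2A1 (0.38) in replicate 4.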

How the results depend on the processing

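For 100 named genes, 22 alternatives gave 2200 values for the mean of both lines, of which 2190 kept direction and side of the threshold, 8 kept direction and no longer passed, and 2 changed sign. The sign changed for CDKN1B (0.19) and TOP2A (−0.021) after the median of neighbouring genes was removed. Those that no longer passed were TNFRSF9, C3, DHRS3, H3C10 and H2BC5 with the 8 knockout libraries as 1 group, and CRTAP, HOXC6 and HOXC4 with the neighbours' median removed. The TNFRSF12A log2 fold change ran from −1.52 to −1.39. Genes called in the mean were 1136 higher and 1284 lower with the knockouts as 1 group, and 2103 higher with the neighbours' median removed. Shared higher genes were 591 with the neighbours' median removed, 1910 when only the WT mean had to be passed and 83 at a change of at least 1 on the log2 scale in both lines; shared lower genes were 2123 and 337 under the last 2 settings. The cause was not tested. Leaving out 1 library gave 994 to 1210 shared higher and 1304 to 1571 shared lower genes. The shared rule is easier to pass with fewer libraries, so this rise is largely set by the rule. Called genes ran from 3011 to 3672 higher and from 3515 to 4193 lower.

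The replicate numbers did not pair the libraries: 4 of 12 same-numbered pairs had a correlation of deviations over 0.1 (range −0.52 to 0.29), and 1 of 12 libraries correlated best with its own number. With a replicate block, 970 genes were shared higher and 1249 lower, and 3200 and 3641 were called. With only the 12 libraries of the comparison fitted, 923 were shared higher and 1262 lower, and 3037 and 3683 were called. Genes near 0 counts in a line are limited by depth, and their fitted folds are not bounds.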
